A study of Mus musculus with 6 samples.

Results

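Oxidative phosphorylation genes, which encode the nuclear-made subunits of the mitochondrial respiratory chain and ATP synthase, were examined in mouse mammary tumours with and without serglycin. The members were taken by gene symbol alone. They were the genes that begin with Nduf followed by a, b, c, s or v and a number (complex I), the 4 Sdh genes (complex II), and those that begin with Uqcr (complex III), Cox4 to Cox8 (complex IV) or Atp5 (complex V). Of 22180 genes measured, 79 met this rule, through 88 probe sets. Where a gene had several probe sets, as 9 members did, the brightest over the 6 tumours stood for it. By complex there were 32 members in complex I, 4 in complex II, 8 in complex III, 17 in complex IV and 18 in complex V. The complex was read from the symbol alone and was not checked against where each protein acts. RefSeq lists 77 of them as protein coding and 2, Uqcrh-ps1 and Atp5c1-ps, as pseudogenes.

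The SG-/- group held 3 tumours from mice that carried the PyMT oncogene and lacked both copies of the serglycin gene Srgn. The SG+/- group held 3 tumours from mice that carried PyMT and 1 intact Srgn copy, so every mouse had at least 1 disrupted copy and no wild-type tumour was included. PyMT encodes the polyoma virus middle T protein, which drives mammary tumours. The labels give neither the promoter that drives the transgene nor the strain or age of the mice. Whole tumour tissue was profiled, 1 array per tumour, and nothing in the labels pairs tumours across genotypes. A gene's value is an average over all cells of the tumour, so fewer cells of a type cannot be told apart from less RNA per cell.

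The respiratory chain passes electrons from NADH through complex I, or from succinate through complex II, to complex III and then to complex IV, which gives them to oxygen. Complexes I, III and IV pump protons across the inner mitochondrial membrane, and complex V, the ATP synthase, uses that gradient to make ATP. Most subunits are encoded in the nucleus and a few in mitochondrial DNA, so that both genomes contribute to complexes I, III, IV and V. Tumours often shift between respiration and glycolysis, and mammary epithelium has abundant mitochondria when it makes milk.

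The promoters of the members are shown first, because shared binding sites for the nuclear respiratory factors are a known feature of this gene class. Promoters, from 250 bases before to 50 after the annotated start, came from RefSeq on build GRCm38.p6, and 64 of the 79 members had an entry, with 69 promoters in all. Each motif was searched on both strands. The motif of NRF1, a factor that activates respiratory chain genes, was taken as GCGCANGCG, and a match was found in 19 of the 69 member promoters (27.5%) and in 2053 of all 32851 promoters (6.25%). The core of the ETS family, to which the respiratory factor GABP belongs, was taken as CCGGAAG, with matches in 17 member promoters (24.6%) and 2910 of all promoters (8.86%). For YY1, taken as AAGATGGCG, the shares were 8.70% and 1.40%, and for the ERR motif TCAAGGTCA they were 2.90% and 0.423%. The shorter ERR core AAGGTCA, which lies within that motif, was in 8.70% of member promoters and 4.72% of all. The CRE motif TGACGTCA was in 4.35% and 1.79%. The other motifs were held by similar shares of both sets, with 39.1% and 37.4% for the NF-Y motif CCAAT, and 40.6% and 35.7% for the SP1 motif GGGCGG. The TBP motif TATAAA was in 9 of the 69 member promoters and in 4473 of all. Member promoters were richer in G and C, with a median content of 57.3%, against 52.7% over all promoters. A few members have more than 1 promoter in the count, and a match is a run of letters, not a measured binding site.

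**Figure D1:**
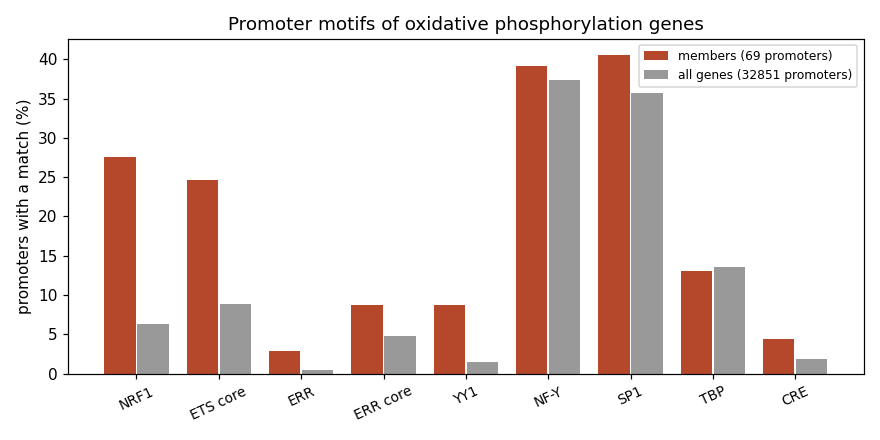
Share of promoters (percent, vertical axis) with at least 1 match to each motif, for the 69 member promoters (red) and all 32851 promoters (grey). The largest gap is at NRF1, with 27.5% of member promoters and 6.25% of all.

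Of the 64 members with a promoter, 18 held an NRF1 match, 17 an ETS match, 6 both and 29 either. By complex, NRF1 matches were in 7 of 31 promoters of complex I, 2 of 3 of complex II, 2 of 4 of complex III, 1 of 13 of complex IV and 7 of 18 of complex V. The examples printed here are Uqcrc1 and Sdha because they mark the gene set, with Cox8a and Cox8b because they encode the ubiquitous and the muscle form of 1 subunit. The capitals mark NRF1 matches in the first pair, ETS matches in Cox8a and the TBP match in Cox8b. The promoter of Uqcrc1 lies at chr9:108936398-108936697 on the plus strand, that of Sdha at chr13:74350191-74350490, that of Cox8a at chr19:7217567-7217866 and that of Cox8b at chr7:140900397-140900696, the last 3 on the minus strand.
Uqcrc1: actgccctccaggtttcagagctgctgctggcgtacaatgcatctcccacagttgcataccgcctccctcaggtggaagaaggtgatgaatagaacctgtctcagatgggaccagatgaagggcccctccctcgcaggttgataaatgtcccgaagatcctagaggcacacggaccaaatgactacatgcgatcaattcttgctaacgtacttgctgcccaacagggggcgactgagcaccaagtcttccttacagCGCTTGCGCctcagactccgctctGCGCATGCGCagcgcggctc
Sdha: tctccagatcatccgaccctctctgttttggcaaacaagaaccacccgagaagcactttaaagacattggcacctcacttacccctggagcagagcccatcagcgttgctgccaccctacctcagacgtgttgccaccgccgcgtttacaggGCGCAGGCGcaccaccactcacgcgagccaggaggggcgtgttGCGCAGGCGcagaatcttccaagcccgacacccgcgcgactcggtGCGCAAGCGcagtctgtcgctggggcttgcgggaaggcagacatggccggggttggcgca
Cox8a: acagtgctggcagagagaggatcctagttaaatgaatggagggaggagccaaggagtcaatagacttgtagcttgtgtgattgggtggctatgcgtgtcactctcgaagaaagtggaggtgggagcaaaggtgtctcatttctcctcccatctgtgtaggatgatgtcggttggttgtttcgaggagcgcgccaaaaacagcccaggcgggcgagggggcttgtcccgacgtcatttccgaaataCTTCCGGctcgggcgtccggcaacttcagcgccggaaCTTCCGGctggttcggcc
Cox8b: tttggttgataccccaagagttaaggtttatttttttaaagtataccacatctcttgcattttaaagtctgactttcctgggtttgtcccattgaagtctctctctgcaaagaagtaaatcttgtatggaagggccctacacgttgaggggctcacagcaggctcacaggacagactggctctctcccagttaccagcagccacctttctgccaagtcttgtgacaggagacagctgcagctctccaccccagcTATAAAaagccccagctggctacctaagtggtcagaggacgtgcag

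The Uqcrc1 promoter had 3 NRF1 matches in 2 stretches, since the second stretch reads as the motif on both strands. The Sdha promoter also had 3 NRF1 matches, and the Cox8a promoter 2 ETS matches. The Cox8b window held neither of these and had the lowest G and C content of the examples, 48.3%, against 62.7% in Sdha, 56.3% in Uqcrc1 and 56.0% in Cox8a.

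Values are log2 expression, already normalised by robust multi-array averaging when deposited. Over 33793 probe sets the array medians ran from 6.50 to 6.73. The arrays differed in spread. SG-/- replicate 3 stood apart, with an interquartile range of 2.56, against 2.85 to 3.15 in the other arrays. Receptors for odours and pheromones (1394 genes) are not known to be used in mammary tissue, and their mean was 4.57, 5.13 and 5.86 in the SG-/- tumours (replicates 1, 2 and 3, the order used throughout), against 4.58, 5.62 and 5.49 in the SG+/- tumours. Srgn, the targeted gene, had 5.07, 5.04 and 4.89 in SG-/- tumours and 6.76, 6.43 and 6.35 in SG+/- tumours, a difference of -1.52 (standard error 0.15, limma adjusted p = 0.467, exact two-sided permutation p = 0.1, the smallest that 3 against 3 allow). Epithelial markers were measured in all 6 tumours, with Epcam between 12.09 and 12.24 and Krt8 between 12.06 and 12.32. All 11 mammary epithelial markers lay above the level of dim genes (6.09, the 40th percentile of probe sets). So did 14861 of all 22180 genes, and all 7 fibroblast, 6 endothelial and 9 macrophage markers, so this level does not single out epithelium. Of the 11 epithelial markers 6 were higher and 5 lower in SG-/- tumours. The smallest p was that of Krt19, a keratin of luminal cells (difference 0.89, limma unadjusted p = 0.0176, adjusted p = 1.00). Krt8 was higher in every SG-/- tumour than in any SG+/- tumour, by 0.13 on average. The number of arrays limits the precision throughout.

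Sdha and Uqcrc1 were well above the level of dim genes in every tumour. Sdha, the flavoprotein that oxidises succinate, stood at 11.09, 11.02 and 10.77 in SG-/- tumours, against 11.02, 10.88 and 10.96 in SG+/- tumours. The genotypes overlapped, with SG-/- replicate 3 lowest. Uqcrc1, a core protein of complex III, stood at 10.41, 10.29 and 10.20 in SG-/- tumours and 10.39, 10.50 and 10.34 in SG+/- tumours, again with overlap. In all, 74 of the 79 members had a mean above the dim level, and the other 5 were Uqcrh-ps1, Atp5c1-ps, Cox7b2, Cox8c and Atp5j2. Cox7b2 and Cox8c are forms of testis, while Atp5j2 encodes subunit f of the ATP synthase. A probe set's level also depends on its probes, so levels were compared between tumours and not between genes.

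The main comparison asks whether subunit expression differed when serglycin was lost. None of the 79 members passed limma's test, with 0 at an adjusted p of 0.05 and 0 at an unadjusted p of 0.05, and the smallest unadjusted p of a member was 0.110 (adjusted p = 1.00). Over all 22180 genes limma called 0% at the adjusted threshold, and 2.11%, or 469 genes, at the unadjusted one. The SG-/- mean was the higher one in 35 members and the SG+/- mean in 44. With each array centred on its brighter genes this split turned to 44 higher and 35 lower in SG-/- tumours, while over all genes the share higher in SG-/- was 46.3% as deposited and 57.3% when centred. The median difference, SG-/- minus SG+/-, was -0.01 over members and -0.01 over all genes. In size the differences had a median of 0.07 over members and 0.10 over all genes, and the largest member difference was 0.50, in Cox8b.

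**Figure D2:**
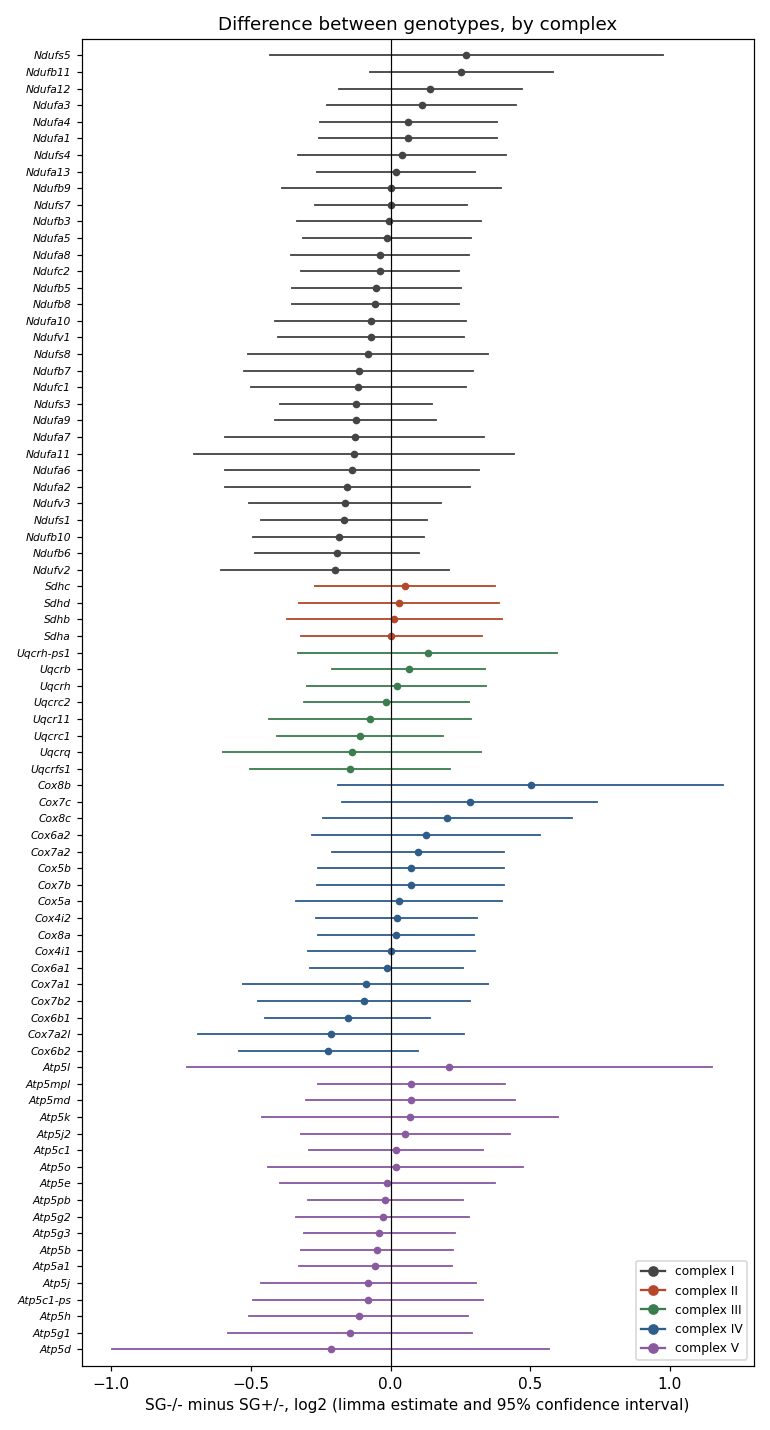
Difference SG-/- minus SG+/- (log2, horizontal axis) of each of the 79 members with its 95% confidence interval from limma, ordered within each complex. Every interval crosses 0, and only those of Cox8b and Atp5l reach past 1.

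The intervals say how large a difference the data leave possible. In 77 of the 79 members the 95% interval lay within a 2-fold change either way (1 on the log2 scale), the exceptions being Cox8b (-0.19 to 1.19) and Atp5l (-0.73 to 1.15). In 53 members, or 67.1%, it lay within 0.5 either way on the log2 scale, against 44.2% of all genes and 48.8% of the 11090 genes above the median level. Tumours of the same genotype also lay close together, with a median residual standard deviation of 0.14 over members, 0.21 over all genes and 0.19 over genes above the median level. The median range over the 6 tumours was 0.38 for members and 0.56 for all genes.

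In complex I, which oxidises NADH, the SG-/- mean was lower in 22 of 32 members and higher in 10, with a median difference of -0.06. The share higher was 31.25%, beside 37.0% of the genes above the median level, whose median difference was -0.05. With arrays centred on brighter genes, 18 complex I members were lower and 14 higher. The complex held all 3 members whose tumours did not overlap between genotypes, 1 above and 2 below every SG+/- tumour. Among all genes, 2.84% lay above every SG+/- tumour and 3.19% below. Counted together, that was 3.80% of members and 6.03% of all genes. With 2 tumours against 3 the shares were 20.3% of members and 14.6% of all genes without SG+/- replicate 3, and 17.7% and 12.5% without SG-/- replicate 1. In each of the 4 other such counts the members' share was the smaller one, between 7.59% and 8.86%. Ndufb11, an accessory subunit of the membrane arm, stood at 7.43, 7.31 and 7.61 in SG-/- tumours and 7.29, 7.22 and 7.07 in SG+/- tumours. Its difference of 0.25 (standard error 0.14) had the smallest p of all members, 0.110 by limma (adjusted p = 1.00). SG-/- replicate 2 and SG+/- replicate 1 were only 0.01 apart. Ndufb6, named after its values were seen like Ndufs3, and another accessory subunit of that arm, stood at 10.05, 9.92 and 9.84 in SG-/- tumours and 10.06, 10.21 and 10.12 in SG+/- tumours. The gap between the nearest tumours of the genotypes was again 0.01, and the difference was -0.19 (standard error 0.12, limma adjusted p = 1.00). Ndufs3, a core subunit of the module that hands electrons to ubiquinone, stood at 8.34, 8.27 and 8.22 in SG-/- tumours and 8.44, 8.38 and 8.37 in SG+/- tumours, a difference of -0.12 (standard error 0.12).

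Other complex I subunits overlapped between genotypes. Ndufv2, a core iron-sulphur subunit that takes electrons from NADH, had the most negative difference in the complex, -0.20. Its levels were 11.06, 10.80 and 10.66 in SG-/- tumours and 11.16, 11.19 and 10.77 in SG+/- tumours. SG-/- replicate 3 was lowest and SG+/- replicate 3 was the lowest of its genotype. Ndufs5, an accessory subunit, had the most positive difference, 0.27, which rested on 1 tumour. It stood at 6.26, 6.59 and 7.49 in SG-/- tumours and 6.53, 6.50 and 6.50 in SG+/- tumours, and without SG-/- replicate 3 its difference was -0.08. Ndufs7, a core iron-sulphur subunit, was the steadiest member of the set, with a range of 0.12 over the 6 tumours and a difference of 0.00. Ndufc2, an accessory membrane subunit, ran from 12.59 to 12.75 in SG-/- tumours and from 12.66 to 12.78 in SG+/- tumours.

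All 4 complex II genes had a slightly higher mean in SG-/- tumours, by 0.00 to 0.05, and their median difference was 0.02. None was apart between genotypes. Each of the 4 was lowest in SG-/- replicate 3. Sdhc, a membrane anchor, stood at 9.84, 9.75 and 9.49 in SG-/- tumours and 9.67, 9.62 and 9.64 in SG+/- tumours, so the SG-/- tumours lay on both sides of the SG+/- ones. Sdhb, the iron-sulphur subunit, stood at 8.79, 8.61 and 8.35 in SG-/- tumours and 8.54, 8.75 and 8.43 in SG+/- tumours. Sdhd, the other anchor, had a difference of 0.03. The side depended on single tumours. All 4 were lower in SG-/- tumours without SG-/- replicate 1, with a median difference of -0.04, and the median was 0.14 without SG-/- replicate 3.

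In complex III, 3 of 8 members were higher and 5 lower in SG-/- tumours, the median being -0.04. Uqcrfs1, the Rieske iron-sulphur protein, had the most negative value, -0.15 (standard error 0.15). It stood at 8.24, 8.13 and 7.92 in SG-/- tumours and 8.22, 8.42 and 8.09 in SG+/- tumours, which overlap. Uqcrb, an accessory subunit, ran from 12.32 to 12.42 in SG-/- tumours and from 12.25 to 12.37 in SG+/- tumours. Uqcrq, another accessory subunit, had the widest range of the complex, 0.68, from 7.04 to 7.32 in SG-/- tumours and from 6.95 to 7.63 in SG+/- tumours. The pseudogene Uqcrh-ps1 had the most positive value, 0.13, at a level below the dim threshold. Uqcrc1 had a difference of -0.11 with a 95% interval from -0.41 to 0.19.

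Complex IV held the member with the largest difference. Here 11 of 17 members were higher and 6 lower in SG-/- tumours, the median being 0.02. Several of its subunits have a ubiquitous form and a form found mainly in muscle, fat or testis. Cox8b, the form of mouse heart, skeletal muscle and brown fat, stood at 7.37, 7.44 and 6.91 in SG-/- tumours and 7.08, 6.11 and 7.04 in SG+/- tumours. SG+/- replicate 2 lay far below the other 5 tumours, and the genotypes overlapped. The difference was 0.50 (standard error 0.29), a 1.42-fold higher mean in SG-/- tumours, with an unadjusted p of 0.129 by limma (adjusted p = 1.00). It was 0.18 without SG+/- replicate 2. Cox8a, the ubiquitous form, ran from 11.72 to 11.89 in SG-/- tumours and from 11.75 to 11.83 in SG+/- tumours, a difference of 0.02.

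**Figure D3:**
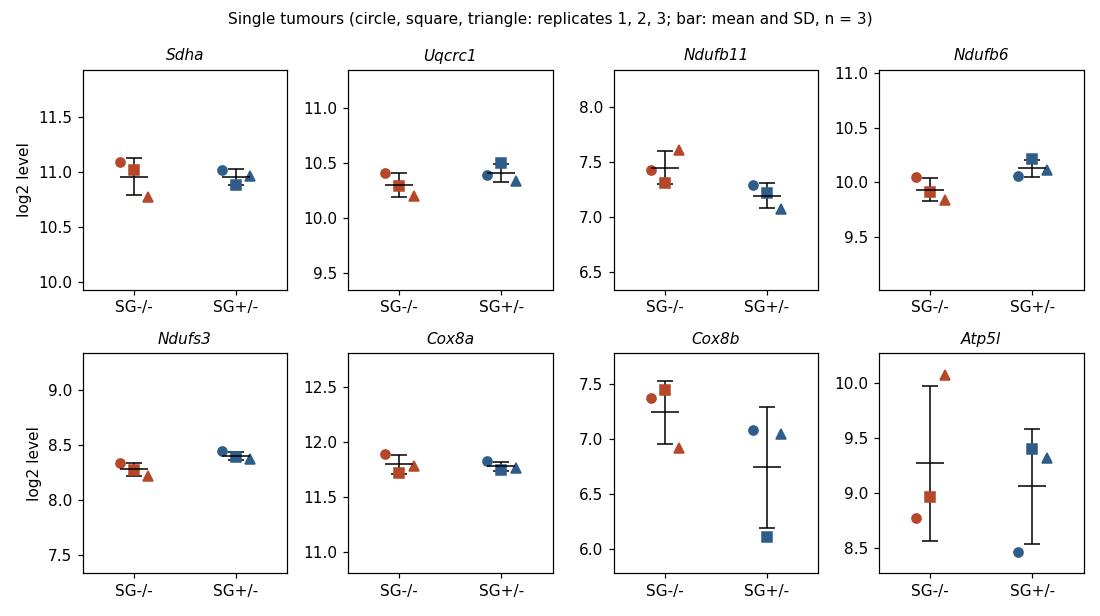
Log2 level (vertical axis, each panel spanning 2 units) of 8 members in single tumours, SG-/- in red and SG+/- in blue, with the mean and SD of each genotype (n = 3). The genotypes are apart in Ndufb11, Ndufb6 and Ndufs3 by small gaps, while Cox8b and Atp5l differ more between tumours than between genotypes.

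Of the 7 tissue-restricted forms, Cox8b included, 4 were higher and 3 lower in SG-/- tumours, with a median of 0.02. Cox7a1, a form of muscle and heart, ran from 7.41 to 7.92 in SG-/- tumours and from 7.66 to 8.04 in SG+/- tumours, a difference of -0.09. For Cox6a2, also of muscle and heart, the values were 6.62, 6.68 and 7.10 in SG-/- tumours and 6.56, 6.62 and 6.85 in SG+/- tumours, with a difference of 0.13. Cox4i2, a form of lung, had a difference of 0.02. Among the testis forms, Cox6b2 had -0.22, with 6.01, 6.25 and 5.91 in SG-/- tumours and 6.31, 6.22 and 6.30 in SG+/- tumours, Cox7b2 had -0.10 and Cox8c 0.20. The ubiquitous partners Cox4i1, Cox6a1, Cox6b1, Cox7a2 and Cox7b had differences of 0.00, -0.01, -0.15, 0.10 and 0.07. Cox7c, a small subunit named after its values were seen, stood at 8.91, 9.01 and 8.40 in SG-/- tumours and 8.35, 8.68 and 8.45 in SG+/- tumours. SG-/- replicates 1 and 2 were above all SG+/- tumours and replicate 3 was not. Its difference was 0.28 (limma unadjusted p = 0.188), and 0.47 without SG-/- replicate 3 (limma unadjusted p = 0.0155, adjusted p = 0.753).

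Markers of muscle and brown fat were set beside these forms. Skeletal muscle genes were lowest in SG-/- replicate 2 and SG+/- replicate 2. The median deviation of the 20 muscle markers from their own means was 0.14, -0.73 and 0.46 in SG-/- tumours, against 0.28, -0.57 and 0.29 in SG+/- tumours. Acta1, the actin of skeletal muscle, stood at 8.89, 6.86 and 9.09 in SG-/- tumours and 8.88, 7.08 and 8.91 in SG+/- tumours. Cox8b was thus low in 1 of the 2 tumours with low muscle markers and highest in the other. Ucp1, the uncoupling protein that defines brown fat, lay between 5.35 and 6.20 in SG-/- tumours and between 5.44 and 5.69 in SG+/- tumours, near or below the dim level. The 9 measured brown fat markers, which include Cox7a1 and Cox8b, had a median difference of 0.00. The part of muscle or fat in the values of these forms was not tested.

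In complex V, the ATP synthase, 7 of 18 members were higher and 11 lower in SG-/- tumours, the median being -0.02. The catalytic head varied little. Atp5b, its catalytic beta subunit, stood at 12.97, 12.94 and 12.85 in SG-/- tumours and 12.94, 12.98 and 12.996 in SG+/- tumours, a difference of -0.05. Atp5a1, the alpha subunit, had a difference of -0.05 as well. The genes Atp5g1, Atp5g2 and Atp5g3 encode the same ring subunit and differ in their targeting sequence. They had differences of -0.14, -0.03 and -0.04. Atp5g1 ran from 6.46 to 6.89 in SG-/- tumours and from 6.54 to 7.05 in SG+/- tumours, while Atp5g3 stayed within 0.14 over all 6.

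Atp5l, which encodes subunit g of the membrane part, had the widest range of all members, 1.62. It stood at 8.77, 8.96 and 10.08 in SG-/- tumours and 8.46, 9.40 and 9.32 in SG+/- tumours. Its highest value was in SG-/- replicate 3, which also had the highest mean of the receptor genes, and its 2 lowest values were in SG+/- replicate 1 and SG-/- replicate 1, which had the lowest receptor means. The difference was 0.21 (standard error 0.40) and turned to -0.19 without SG-/- replicate 3 and to -0.09 without SG+/- replicate 1. Atp5d, the delta subunit of the central stalk, had the third widest range, after Cox8b, with 10.50, 10.60 and 9.51 in SG-/- tumours and 10.48, 10.76 and 10.002 in SG+/- tumours. It was lowest in SG-/- replicate 3, the genotypes overlapped, and its difference was -0.21 (standard error 0.33). Whether the spread of the arrays has a part in these ranges was not tested.

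SG+/- replicate 2 had the highest value of the 6 tumours in 33 of 79 members (41.8%), against 15.9% of all genes and 19.5% of the genes above the median level. In the mitochondrial lists described below, it was highest in 8 of 17 membrane proteins, 5 of 14 assembly factors of complex I and 10 of 29 of complexes II to V. It was highest in 5 of 17 regulators, 3 of 13 cycle genes, 1 of 8 other subunits and 0 of 10 mitochondrially encoded subunits. SG-/- replicate 3 had the lowest value in 30 members (38.0%), against 34.3% of all genes and 59.4% of the brighter ones. No test was made of these shares. Relative to each gene's own mean, the median over members was 0.07, -0.06 and -0.08 in SG-/- tumours, against -0.01, 0.08 and -0.05 in SG+/- tumours, so the genotypes interleave. Members above their own mean numbered 63, 21 and 26 in SG-/- tumours, against 37, 59 and 23 in SG+/- tumours. Of all 22180 genes, 12156, 10637 and 9883 were above their own mean in SG-/- tumours, and 11678, 11117 and 11560 in SG+/- tumours. Of the 11090 genes above the median level, 8131, 7264 and 1489 were so in SG-/- tumours, and 7580, 5699 and 4907 in SG+/- tumours. The genes above the median level had medians of 0.08, 0.05 and -0.20 in SG-/- tumours and 0.07, 0.01 and -0.02 in SG+/- tumours. In SG-/- replicate 3, complex II lay at -0.20, like these brighter genes, complex I at -0.10 and the other complexes between -0.07 and -0.02. SG+/- replicate 2 was highest in complexes I, III, IV and V, at 0.11, 0.13, 0.05 and 0.11, and below 0 in complex II, at -0.04.

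**Figure D4:**
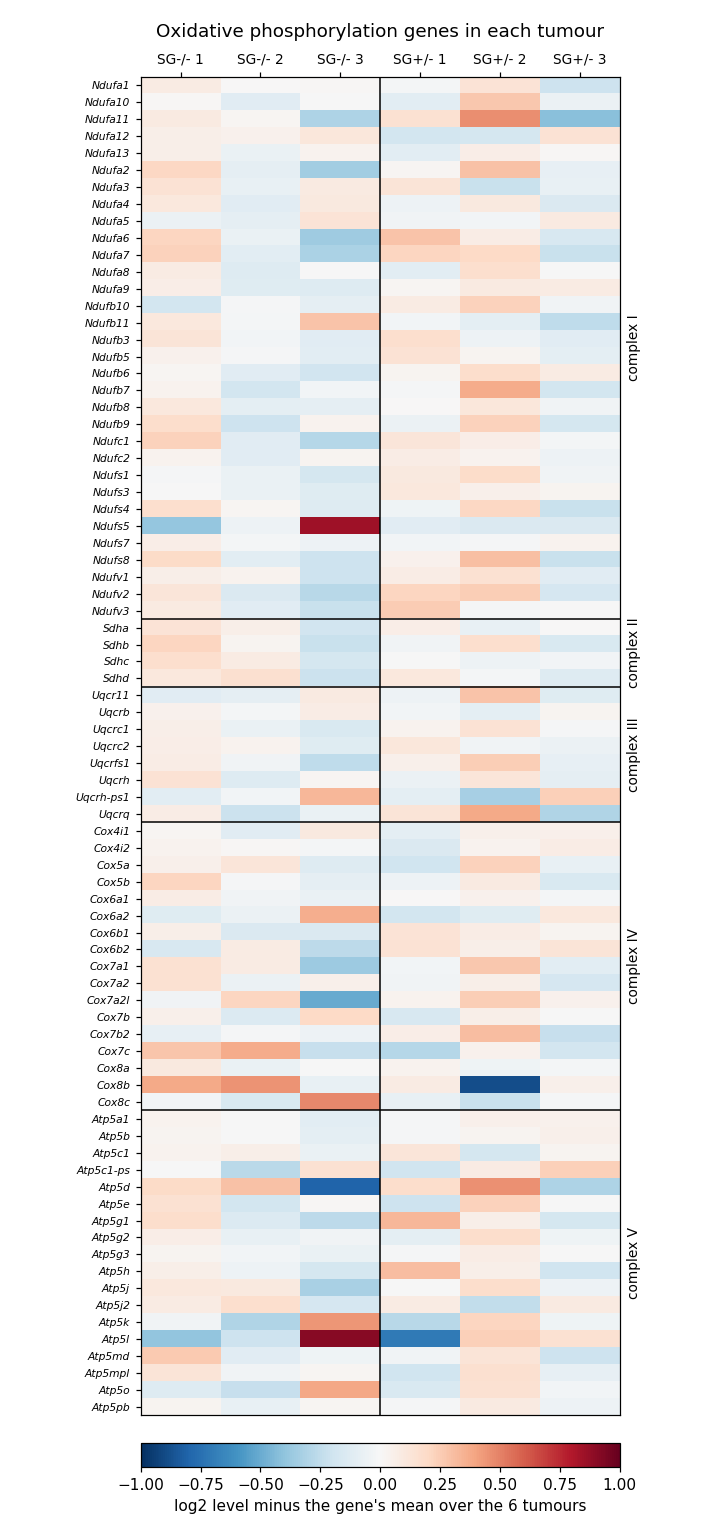
Log2 level of each of the 79 members minus its own mean over the 6 tumours (colour), with tumours in columns and genes in rows by complex. Most cells are pale, and the strongest colours are Ndufs5 and Atp5l in SG-/- replicate 3, Atp5d in SG-/- replicate 3 and Cox8b in SG+/- replicate 2.

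Genes that make or regulate the same machinery were then examined from lists. None of their members passed limma at an unadjusted p of 0.05, beside 2.11% of all genes. Of the 13 subunits encoded in mitochondrial DNA, 10 were measured, and 5 lay higher and 5 lower in SG-/- tumours (median 0.00). ND1, a core subunit of complex I, stood at 13.53, 13.62 and 13.76 in SG-/- tumours and 13.57, 13.65 and 13.67 in SG+/- tumours. ND6, the complex I subunit read from the other strand of mitochondrial DNA, varied most, with 9.37, 9.94 and 10.82 in SG-/- tumours and 8.96, 10.34 and 10.34 in SG+/- tumours. As in Atp5l, its highest value was in SG-/- replicate 3 and its lowest pair in SG+/- replicate 1 and SG-/- replicate 1. The mitochondrially encoded genes had medians of -0.10, -0.01 and 0.10 in SG-/- tumours, against -0.06, 0.02 and 0.04 in SG+/- tumours. In SG-/- tumours this order was opposite to that of the nuclear members of complex I. As with the receptor means, the lowest medians were in SG-/- replicate 1 and SG+/- replicate 1 and the highest in SG-/- replicate 3. Whether the spread of the arrays has a part in this order was not tested. Without SG-/- replicate 3 all 10 genes were lower in SG-/- tumours, and 9 were lower without SG+/- replicate 1. Without SG-/- replicate 1, 8 were higher.

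Assembly factors of complex I numbered 14. Their SG-/- mean was higher in 6 and lower in 8, and the median was -0.05. Ndufaf7, a methyltransferase that modifies a complex I subunit, had the smallest p among them, with 8.20, 8.25 and 7.68 in SG-/- tumours and 8.47, 8.61 and 8.22 in SG+/- tumours (difference -0.39, limma unadjusted p = 0.0856). For complexes II to V, 7 of 29 measured assembly factors were higher and 22 lower, with a median of -0.08. Ttc19, which assists complex III, had -0.34. Of 13 tricarboxylic acid cycle genes, 1 was higher and 12 were lower, with a median of -0.07. The smallest p was that of Suclg1 (difference -0.13), and citrate synthase (Cs) ran from 10.74 to 10.95 in SG-/- tumours and from 10.85 to 10.97 in SG+/- tumours. Of 17 regulators of mitochondrial biogenesis, 4 were higher and 13 lower, with a median of -0.05. Polg, the mitochondrial DNA polymerase, had -0.17, Ppargc1a, the coactivator PGC-1alpha, -0.02 and Nrf1 -0.05, and Tfam, which binds mitochondrial DNA, stood at 8.13, 8.05 and 7.34 in SG-/- tumours and 8.01, 8.17 and 8.10 in SG+/- tumours. Of 17 mitochondrial membrane proteins, 4 were higher and 13 lower, with a median of -0.10 and the smallest p in Timm44 (difference -0.18). Of 8 measured subunits and partners that the symbol rule does not reach, such as Ndufab1, 3 were higher and 5 lower, with a median of -0.06. Among genes above the median level, 4107 of 11090 were higher and 6983 lower, with a median of -0.05. The lists of assembly factors, cycle enzymes, regulators and membrane proteins had their lowest medians in SG-/- replicate 3, between -0.26 and -0.16, the array in which brighter genes as a whole were low. The counts of these lists depended on that tumour. Without it, 7 cycle genes were higher and 6 lower (median 0.00), and 17 and 12 assembly factors of complexes II to V (median 0.03). Regulators then had 10 higher and 7 lower (median 0.01), complex I assembly factors 8 and 6 (0.04) and membrane proteins 8 and 9 (-0.02).

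**Figure D5:**
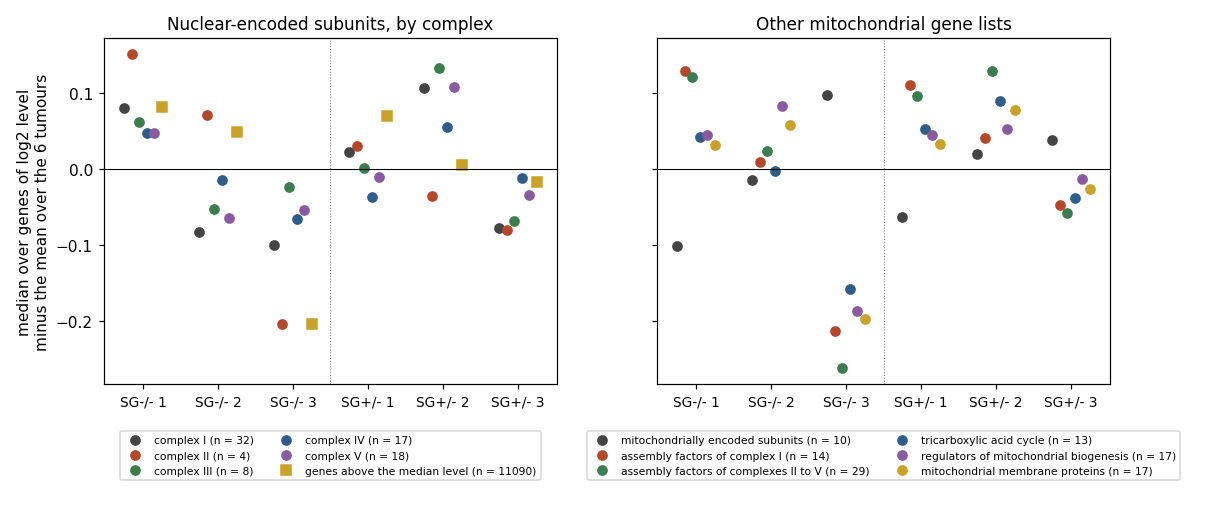
Median over genes of the log2 level minus each gene's mean over the 6 tumours (vertical axis), by tumour, for the 5 complexes and the genes above the median level (left) and 6 other mitochondrial lists (right). Tumours of the 2 genotypes interleave in each complex, and SG-/- replicate 3 is low in complex II and in the nuclear lists on the right.

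Markers of other cells were set beside the subunits. Endothelial, fibroblast, macrophage and lymphocyte markers were higher in SG-/- tumours in 30 of 30 measured genes, with 9 at an unadjusted limma p under 0.05 and 0 after adjustment. Over all genes, 46.3% were higher in SG-/- tumours and 2.11% passed the unadjusted p. Of the 8 lymphocyte markers only 4 lay above the dim level. The median differences were 0.37, 0.58, 0.37 and 0.37 for these 4 lists, against -0.01 for the members. The genes with the smallest p in these lists, Cdh5, Fap, Fcgr1 and Cd3g, had differences of 0.51, 0.59, 0.65 and 0.74. The fibroblast and macrophage medians depended on 1 tumour. Without SG-/- replicate 1, chosen after seeing the data, 26 of the 30 were higher, the fibroblast median was 0.22 and the macrophage median 0.11, and Col1a1, Pdgfra, Cd14 and Cd4 were lower in SG-/- tumours. Salivary genes differed widely between tumours in both directions. Bpifa2, the parotid secretory protein, stood at 13.54, 7.26 and 13.64 in SG-/- tumours and between 5.98 and 6.47 in SG+/- tumours. Of 19 salivary genes 13 were higher and 6 lower, with a median of 0.20. At an unadjusted limma p under 0.05, 5 were higher, with the smallest p in Klk1 (difference 4.45), and 1 was lower, Dcpp2 (difference -2.54). Of 11 white fat genes 10 were higher, 1 at that p, Lpl (difference 0.42), with a median of 0.32. The lowest value was in SG+/- replicate 2 for 9 of the 11, as it was for Cox8b. Without that tumour 9 white fat genes were higher and 2 lower, with a median of 0.15. Their median deviation was -0.46 in SG+/- replicate 2 and next lowest in SG-/- replicate 2 (-0.18), where Cox8b was highest. Muscle genes had 9 higher and 11 lower. The part of these cells in the subunit values was not tested.

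Members with more than 1 probe set allowed a check within genes. In 8 of the 9 such members both probe sets had a difference of the same sign, and the exception was Cox7b, at 0.07 and -0.17. Atp5h, a subunit of the peripheral stalk, had -0.11 and -0.33, and Ndufa11, a membrane-arm subunit of complex I, -0.13 and -0.33. The 2 Atp5d probe sets spanned 1.26 and 0.30 over the tumours, so the wide range of this gene was in 1 of them. Another 10 probe sets named a member or a gene of the same kind together with a second gene and were left out of the counts. Their differences ran from -0.36, for the probe set of Uqcr10 and Gm6293, to 0.09, for one of Ndufs6 and Ndufs6b. Small subunits have many processed copies in the genome, so probe sets of such genes may also read relatives.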

How the data were processed

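Total RNA from 6 snap-frozen tumours was labelled and hybridised to Affymetrix arrays, 1 per tumour. The log2 values are those the authors deposited, made with Affymetrix Expression Console and RMA (robust multi-array averaging) per the submitters' processing notes, which also name limma. The annotation release is not given in the sources used here, and no column was left out. Of 33793 probe sets, 23521 had 1 gene symbol in the platform annotation, 1814 had several and 8458 were not listed there. The probe set with the highest mean stood for a gene, giving 22180 genes. Genotypes were compared with limma 3.58.1 (lmFit and eBayes, R 4.3.3), with p-values adjusted by Benjamini-Hochberg over all genes, after the code was tested on simulated data. The labels number the tumours by mouse and give no litters or batches. Log2 differences are SG-/- minus SG+/-, and the range and residual standard deviation are over the 6 arrays.

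The members and lists were chosen with earlier results of these data known. Genes were named from a rule, of which not every gene is printed: Sdha, Uqcrc1 and Srgn, in each complex the members with the extreme level, difference, range or p, the isoform groups, and in each other list its first gene and the one with the smallest p. Ndufb6, Ndufs3, Ndufs7, Cox7c, Sdhd, Atp5a1, Atp5h, Ndufa11, ND6, Tfam, Nrf1, Krt8, Dcpp2, Pdgfra, Cd14 and Cd4 were named after their values were seen. The alternatives were quantile normalization, centring on brighter genes, trend and robust variance, array weights, the mean of probe sets, a filter on dim genes and leaving out each tumour. Proteins were not compared.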

Additional observations from a re-analysis of the deposited data

How the results depend on the processing

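The median difference over members, and over each complex, moved by less than the spread between replicates under every alternative run, but that spread is wider than the medians and signs turned. The median over members was 0.03 with centring on brighter genes, 0.02 without SG+/- replicate 2 and -0.07 without SG-/- replicate 1. That of complex I stayed below 0, while those of complexes II (lowest -0.04), III (highest 0.01), IV (lowest -0.02) and V (highest 0.02) changed sign in some settings. Of 1022 values of single members under the alternatives, 1015 did likewise and 7 moved further, all with array weights, while 127 changed sign, in 52 members. Much of this count was fixed in advance. Leaving out 1 of 3 tumours cannot shift a member's difference by as much as that spread. Trend and robust variance and the dim filter leave each difference unchanged. The 1015 values are therefore no measure of how stable the differences are. No member had an adjusted limma p below 0.241 in any setting. Array weights gave 3 members at an unadjusted p under 0.05 (Cox7c, Cox8b and Atp5c1-ps) and 2569 of all genes. With the receptor mean as a covariate, chosen after seeing the data, 1038 of all genes passed the unadjusted p and 1 the adjusted p, Srgn, at -1.53 (adjusted p = 0.0446). Leaving out 1 tumour at a time gave 0 to 1 members and 327 to 1200 genes at the unadjusted p, 0 to 1 genes at the adjusted p, 23 to 43 members higher in SG-/- tumours, and 6 to 16 members whose genotypes did not overlap. The lowest of these counts of non-overlapping members was without SG+/- replicate 2 (7.59% of members, 12.9% of all genes) and the highest without SG+/- replicate 3 (20.3% and 14.6%). Without SG-/- replicate 1 there were 14 (17.7% and 12.5%). The 327 genes were without SG-/- replicate 1, as were the 23 members, and the 1200 without SG-/- replicate 3. The cause was not tested. The filter on dim genes left 74 members and removed Srgn. Leaving out the 2 genes listed as named for the ATP synthase but not subunits gave no value, since neither is a member. Without the 2 pseudogenes, Atp5c1-ps among them, a setting not planned at the start, the median over members was -0.01. No paired analysis was possible because the labels tie no tumour to one of the other genotype, and the replicate numbers used here only name tumours within a genotype.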
